A study of Mus musculus with 9 samples.

Results

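The epidermal growth factor (EGF) family ligands, the ERBB receptors they bind and the receptor inhibitor Errfi1 were followed in a mouse pancreatic cancer cell line. The 10 genes were 6 ligands (Ereg, Areg, Hbegf, Tgfa, Btc and Nrg1), 3 receptors (Egfr, Erbb2 and Erbb3) and Errfi1. Every probe set to which the platform annotation gave 1 of these symbols and no other was taken, which found 21 probe sets of 34945 single-gene probe sets, for 9 of the 10 genes. Areg had none under this rule and was not analysed here. Of the 21 probe sets, 18 reached log2 5 on at least 3 arrays and were tested, and they covered all 9 genes.

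EGF family ligands are made as membrane-anchored precursors that metalloproteases release from the cell surface. They bind ERBB receptor tyrosine kinases, which pair and signal through RAS and ERK, PI3K and STAT proteins. ERK in turn induces several of the ligands and also inhibitors of the pathway, so that the family sits in loops of positive and negative feedback. In the pancreas EGFR signalling is known for its part in tumour formation.

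All cells were of the line 170#3, from mice of a mixed C57BL6, FVB and 129Sv background, grown in monolayer. One group was stably transfected with beta-catenin, the transcriptional co-activator of Wnt signalling, and one with ICAT, an inhibitor that competes with TCF factors for beta-catenin. The third group was a stably transfected control, and the labels do not say what it carried. The beta-catenin and ICAT cells are called the 2 transfected lines. Each group had 3 arrays, called biological replicates in the labels, which do not say whether they came from separate transfections or clones. P-values therefore measure only the spread between these samples, and the number of arrays limits the precision.

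Values are RMA log2 expression, and array medians lay between 6.21 and 6.29. Replicates of a gene had a median SD of 0.0746 in beta-catenin, 0.121 in ICAT and 0.0567 in control cells. Ctnnb1 averaged 12.88 ± 0.0146 in beta-catenin, 12.88 ± 0.107 in ICAT and 12.68 ± 0.0136 in control cells (SD, n = 3 each). Ctnnbip1, which encodes ICAT, averaged 8.78, 8.79 and 8.64 in the same groups. The array's probes read the 3′ part of transcripts, and a transgene may lack that end, so these values do not check the labels. In bulk RNA, fewer cells of a type cannot be told apart from less RNA per cell. The cells are labelled pancreatic cancer. Of 10 epithelial markers measured, 7 were tested, among them Epcam at means of 7.5, 7.52 and 7.48 in beta-catenin, ICAT and control cells and Krt18 at 6.79, 8.51 and 7.23. Cdh1, at 3.54, 3.48 and 3.48, was the only one under the limit of log2 5 on all arrays. Krt19, Cldn4 and Cldn7 were tested but lay near that limit, with group means from 5.27 to 5.69. Krt7 and Esrp1, with group means from 4.89 to 5.0, were not tested. Of 5 ductal markers 4 were tested, with Sox9 at 9.01, 9.54 and 9.01, and Cftr was under the limit on all arrays.

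Of the 9 genes measured, 7 passed the test in beta-catenin cells against control cells (limma, adjusted p under 0.05, brightest probe set of each gene), 5 lower and 2 higher. Among all 15235 genes tested 33.1 percent passed, 14.4 percent lower and 18.7 percent higher. The ligand genes Ereg, Hbegf and Btc, the receptor gene Erbb3 and the inhibitor gene Errfi1 fell. The ligand gene Nrg1 and the receptor gene Erbb2 rose, and Egfr and Tgfa did not pass. In ICAT cells against control cells only 2 of the 9 passed, against 35.3 percent of all genes (17.9 percent higher and 17.5 percent lower). These were Ereg, which fell, and Errfi1, which rose. The median log2 difference of the 9 genes was -0.30 in beta-catenin cells and -0.04 in ICAT cells, beside -0.03 and -0.01 over all genes tested. Both comparisons use the same 3 control arrays.

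**Figure D1:**
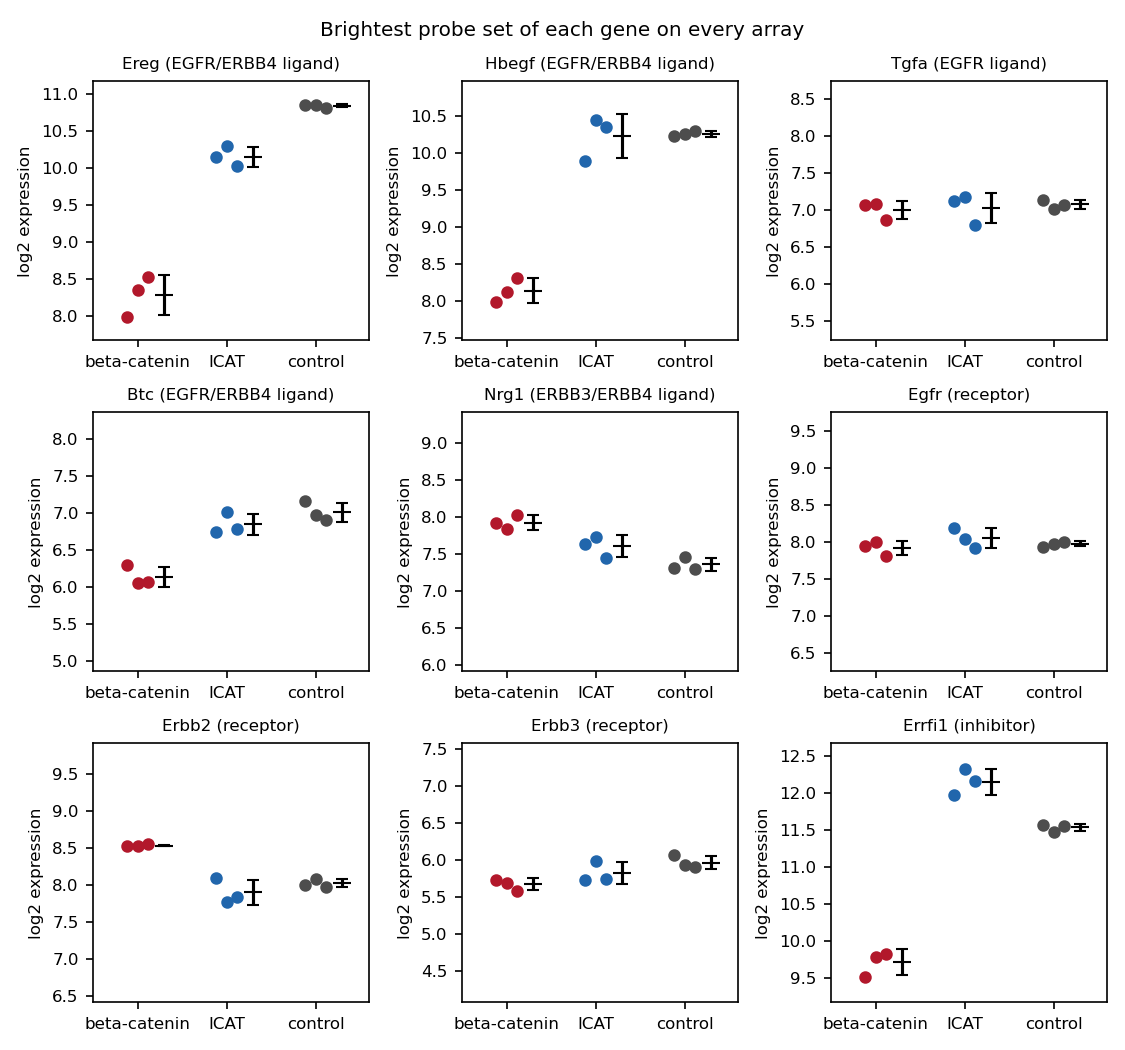
Log2 expression of the brightest probe set of each of the 9 measured genes (y axis, the same height of log2 units in every panel) on each array of the beta-catenin, ICAT and control groups (x axis). Points are arrays and bars show the mean and SD of 3 arrays. The 3 beta-catenin arrays lie below all control arrays for Ereg, Hbegf, Btc, Erbb3 and Errfi1 and above them for Erbb2 and Nrg1.

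Epiregulin, the product of Ereg, is a ligand of EGFR and ERBB4. Its only probe set, 1419431_at, read 7.99, 8.35 and 8.53 on the beta-catenin arrays, 10.15, 10.30 and 10.03 on the ICAT arrays, and 10.86, 10.86 and 10.82 on the control arrays. The 3 groups did not overlap, with beta-catenin cells lowest and ICAT cells between them and the control cells. Ereg fell 5.88-fold in beta-catenin cells (log2 difference -2.56, 95% interval -2.82 to -2.29, limma adjusted p = 3.34e-08). It fell 1.61-fold in ICAT cells (-0.69, -0.95 to -0.42, adjusted p = 0.00104). The direct comparison of beta-catenin with ICAT cells gave a 3.66-fold lower level (adjusted p = 5.41e-07).

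Heparin-binding EGF-like growth factor, encoded by Hbegf, is a membrane-anchored ligand of EGFR and ERBB4 that is shed by metalloproteases. The brighter of its 2 probe sets, 1418350_at, read 7.99, 8.12 and 8.32 in beta-catenin cells, 9.90, 10.45 and 10.36 in ICAT cells, and 10.23, 10.26 and 10.30 in control cells. Beta-catenin arrays were all below the other groups, and ICAT arrays lay on both sides of the control arrays. Hbegf fell 4.35-fold in beta-catenin cells (-2.12, -2.41 to -1.83, adjusted p = 2.87e-07). The second probe set, 1418349_at, read 8.08, 8.06 and 8.11 in beta-catenin cells, 9.34, 9.96 and 9.92 in ICAT cells, and 9.73, 9.72 and 9.80 in control cells, a 3.18-fold decrease with beta-catenin (adjusted p = 2.31e-06). Neither probe set passed in ICAT cells (differences of -0.03 and -0.01, adjusted p = 0.909 and 0.96), with intervals of -0.31 to 0.26 and -0.31 to 0.28. On both probe sets ICAT replicate 1 was the lowest of its group.

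Betacellulin, encoded by Btc, also binds EGFR and ERBB4. Probe set 1435541_at read 6.30, 6.06 and 6.07 in beta-catenin cells, 6.74, 7.01 and 6.79 in ICAT cells, and 7.16, 6.97 and 6.91 in control cells. The beta-catenin arrays lay below all others, while ICAT and control arrays overlapped. Btc fell 1.83-fold in beta-catenin cells (-0.87, -1.09 to -0.65, adjusted p = 3.79e-05). The difference of ICAT from control cells was -0.17 (-0.38 to 0.05, adjusted p = 0.246). A second Btc probe set stayed under log2 5 on all 9 arrays, was not tested and has no sure order at that level.

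Transforming growth factor alpha, encoded by Tgfa, binds EGFR. Over its 3 probe sets the beta-catenin arrays read from 6.49 to 7.08, the ICAT arrays from 6.73 to 7.18 and the control arrays from 6.68 to 7.14. None of the 3 passed against control in either line by limma, and 1 had an unadjusted p under 0.05 (1421943_at in beta-catenin cells, log2 difference -0.25, adjusted p = 0.0754). It passed there without ICAT replicate 3 (adjusted p = 0.0276). The same held with only the arrays compared and with array weights (limma, adjusted p = 0.0261 and 0.0308). The intervals of the differences in beta-catenin cells ran from -0.46 to 0.15 over the 3 probe sets. The same 1421943_at was 1.29-fold lower in beta-catenin than in ICAT cells (adjusted p = 0.0119), and the 2 others did not pass (adjusted p = 0.86 and 0.755). Without ICAT replicate 2 that call was lost (adjusted p = 0.052).

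Neuregulin 1, encoded by Nrg1, differs from the ligands above in that it binds ERBB3 and ERBB4 rather than EGFR. Its probe set 1456524_at read 7.91, 7.83 and 8.02 in beta-catenin cells, 7.63, 7.73 and 7.44 in ICAT cells, and 7.31, 7.46 and 7.30 in control cells. Beta-catenin arrays were above both other groups, which overlapped by 1 pair of arrays. Nrg1 rose 1.47-fold in beta-catenin cells (0.56, 0.36 to 0.76, adjusted p = 0.000505). In ICAT cells it was 1.18-fold above control and missed the threshold (0.24, 0.04 to 0.43, adjusted p = 0.063). Without ICAT replicate 3 the ICAT difference passed (0.32, adjusted p = 0.0121). Nrg1 was 1.25-fold higher in beta-catenin than in ICAT cells (adjusted p = 0.0147), a call lost without beta-catenin replicate 3 (adjusted p = 0.0663).

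The group means of the 3 receptor genes spanned 0.14 log2 units for Egfr, 0.30 for Erbb3 and 0.63 for Erbb2, on their brightest probe sets. Those of the ligand genes spanned from 0.07 for Tgfa to 2.56 for Ereg. Erbb2 encodes the partner receptor that has no ligand of its own. Probe set 1424919_at read 8.52, 8.53 and 8.55 in beta-catenin cells, 8.09, 7.77 and 7.84 in ICAT cells, and 8.00, 8.08 and 7.97 in control cells. Erbb2 rose 1.43-fold in beta-catenin cells (0.52, 0.33 to 0.70, adjusted p = 0.000575) and was 1.55-fold higher there than in ICAT cells (adjusted p = 0.000131). In ICAT cells it was 0.11 below control on the log2 scale, with an interval of -0.30 to 0.07 (adjusted p = 0.361). Leaving out ICAT replicate 1, the highest of its group, brought the ICAT difference to -0.21 and past the threshold (adjusted p = 0.0423).

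Egfr, the receptor of epiregulin, HB-EGF, betacellulin and TGF-alpha, had 7 probe sets, of which 5 were tested and 2 read from 3.61 to 5.02 over the 9 arrays. The brightest, 1460420_a_at, read 7.94, 7.99 and 7.80 in beta-catenin cells, 8.19, 8.04 and 7.91 in ICAT cells, and 7.93, 7.97 and 8.00 in control cells. The groups overlapped, and the difference from control was -0.06 in beta-catenin cells (-0.24 to 0.12, adjusted p = 0.655) and 0.08 in ICAT cells (-0.10 to 0.26, adjusted p = 0.536). None of the 5 probe sets passed in any of the 3 comparisons by limma. At an unadjusted p under 0.05 one passed in beta-catenin cells (1451530_at, log2 difference -0.19, adjusted p = 0.0585), one in ICAT cells (1435888_at, 0.23, adjusted p = 0.0917), and one between the lines (1451530_at, -0.16, adjusted p = 0.0906). Leaving out ICAT replicate 2 or 3 brought the first past the adjusted threshold (adjusted p = 0.0456 and 0.0380). A fit of only the arrays compared and one with array weights did so too (limma, adjusted p = 0.0310 and 0.0154). With array weights 1454313_at also passed in beta-catenin cells (-0.23, adjusted p = 0.0260). Leaving out ICAT replicate 3 also brought 1435888_at past it in ICAT cells (0.29, adjusted p = 0.0393), and 1432647_at between the lines (-0.24, adjusted p = 0.0181).

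Erbb3 encodes a receptor with little kinase activity of its own that binds neuregulins and pairs with ERBB2. Probe set 1434606_at read 5.73, 5.69 and 5.58 in beta-catenin cells, 5.73, 5.98 and 5.74 in ICAT cells, and 6.06, 5.93 and 5.90 in control cells. It fell 1.23-fold in beta-catenin cells (-0.30, -0.49 to -0.11, adjusted p = 0.0204). Leaving out control replicate 1 or beta-catenin replicate 3 ended that call (adjusted p = 0.0906 and 0.083). The second Erbb3 probe set, 1452482_at, read from 5.39 to 5.91 in beta-catenin cells and from 5.71 to 5.90 in control cells and did not pass (adjusted p = 0.673). Both lie near the limit of log2 5, and RMA compresses the differences of dim probe sets.

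Errfi1 encodes MIG6, a cytoplasmic protein that binds the active EGFR kinase, blocks it and promotes its degradation. Its brighter probe set, 1416129_at, read 9.51, 9.78 and 9.83 in beta-catenin cells, 11.97, 12.33 and 12.16 in ICAT cells, and 11.57, 11.48 and 11.56 in control cells. No 2 groups overlapped, and the ICAT arrays were above the control arrays while the beta-catenin arrays were below them. Errfi1 fell 3.56-fold in beta-catenin cells (-1.83, -2.06 to -1.60, adjusted p = 1.57e-07) and rose 1.53-fold in ICAT cells (0.61, 0.39 to 0.84, adjusted p = 0.000883). The direct comparison of beta-catenin with ICAT cells gave a 5.44-fold lower level (-2.44, adjusted p = 2.72e-08). The second probe set, 1419816_s_at, moved the same way, with a 2.91-fold decrease in beta-catenin cells and a 1.45-fold increase in ICAT cells (adjusted p = 1.26e-06 and 0.00382). Of the 9 genes, only Errfi1 passed in opposite directions in the 2 lines in this fit.

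Between the lines themselves, 6 of the 9 genes differed in beta-catenin against ICAT cells, beside 38.5 percent of all genes. Ereg, Hbegf, Btc and Errfi1 were lower (16.8 percent of all genes were), and Nrg1 and Erbb2 were higher (21.6 percent). Arrays of the 2 groups did not overlap for 7 of the 9 genes, the additional one being Erbb3, whose nearest arrays are equal at the 2 decimals printed, against 47.6 percent of all genes. Against control cells, arrays did not overlap for 7 genes with beta-catenin and for 2 with ICAT, where 54.1 and 46.2 percent of all genes did not. Over the 18 tested probe sets, 7 were lower and 2 higher in beta-catenin than in control cells, beside 29.7 percent called among all probe sets (13.7 percent lower and 16.0 percent higher). In ICAT cells 2 were higher and 1 lower than in control cells, beside 31.6 percent called among all (15.0 percent higher and 16.6 percent lower). Between the lines 7 were lower and 2 higher in beta-catenin cells, beside 34.8 percent of all (15.3 percent lower and 19.5 percent higher).

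**Figure D2:**
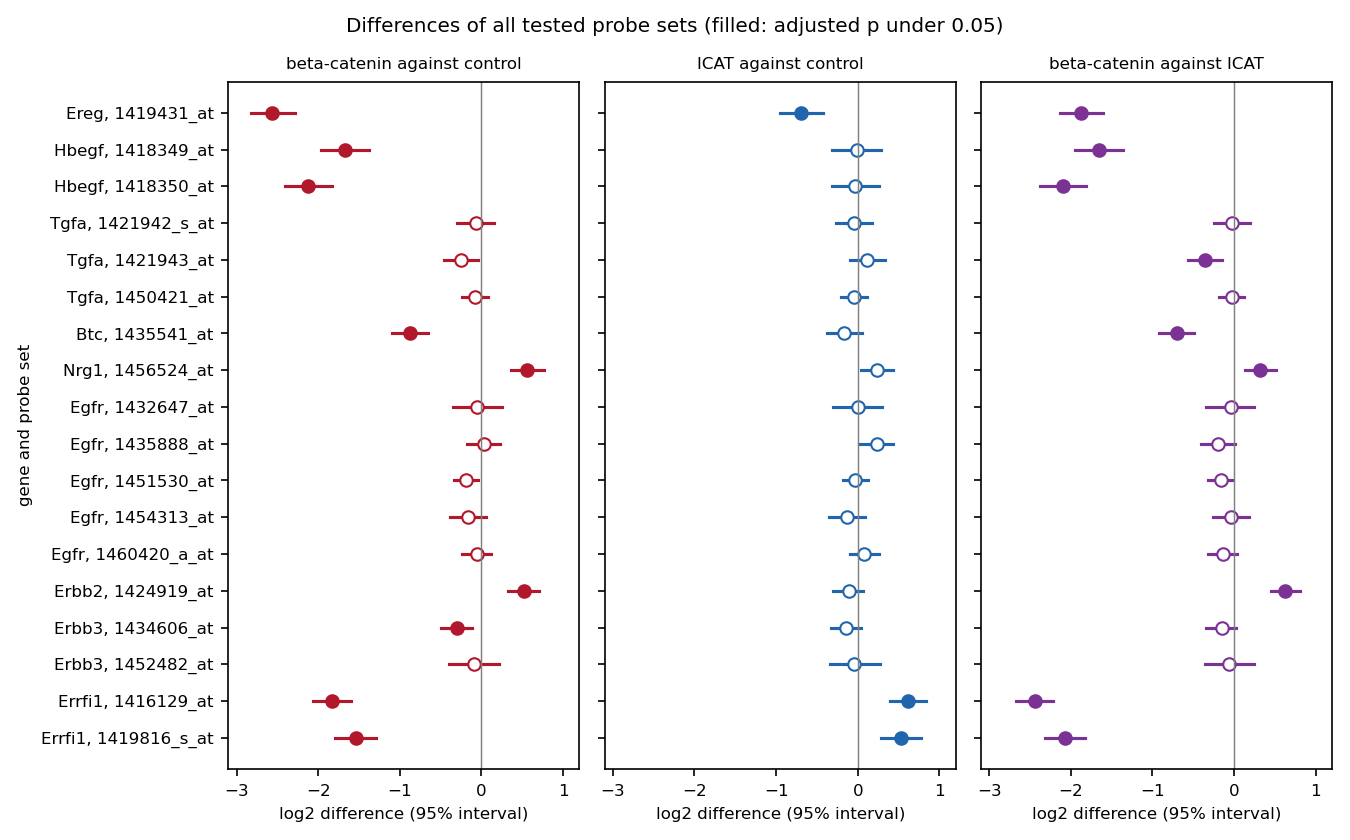
Log2 differences (x axis) of the 18 tested probe sets (y axis) in 3 panels, beta-catenin and ICAT cells each against control cells and then against each other, with 95% intervals from limma. Filled points passed an adjusted p of 0.05. The Ereg, Hbegf and Errfi1 probe sets lie farthest left for beta-catenin, and both Errfi1 probe sets lie right of 0 for ICAT.

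Promoter windows of the members were looked up, Hbegf left out, to show the sequence at their starts. RefSeq windows of 250 bases before to 50 bases after a start (GRCm38.p6) were found for 6 of the 10 genes (Errfi1, Areg, Btc, Tgfa, Egfr and Erbb2), with 7 windows. None was found for Ereg, Erbb3 or Nrg1, so the motif matches cover neither these genes nor Hbegf. The 3 below are those of Errfi1 (its second listed start) and Btc, which fell with beta-catenin, and of Erbb2, which rose. Capitals mark the letters of a searched motif on either strand.
Errfi1, chr4:150854820-150855119, plus strand: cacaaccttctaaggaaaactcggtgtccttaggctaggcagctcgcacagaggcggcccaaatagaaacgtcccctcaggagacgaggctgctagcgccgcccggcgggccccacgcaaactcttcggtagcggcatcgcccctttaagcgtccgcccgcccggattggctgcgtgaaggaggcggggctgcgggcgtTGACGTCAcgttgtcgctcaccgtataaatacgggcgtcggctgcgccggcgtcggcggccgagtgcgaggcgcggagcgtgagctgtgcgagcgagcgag
Btc, chr5:91402945-91403244, minus strand: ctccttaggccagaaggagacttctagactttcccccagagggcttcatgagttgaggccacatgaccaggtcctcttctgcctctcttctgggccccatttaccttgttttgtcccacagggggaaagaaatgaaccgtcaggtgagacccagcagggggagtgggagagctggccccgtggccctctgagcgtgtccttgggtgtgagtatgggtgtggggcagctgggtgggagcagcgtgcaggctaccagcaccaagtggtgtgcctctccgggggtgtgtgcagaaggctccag
Erbb2, chr11:98412234-98412533, plus strand: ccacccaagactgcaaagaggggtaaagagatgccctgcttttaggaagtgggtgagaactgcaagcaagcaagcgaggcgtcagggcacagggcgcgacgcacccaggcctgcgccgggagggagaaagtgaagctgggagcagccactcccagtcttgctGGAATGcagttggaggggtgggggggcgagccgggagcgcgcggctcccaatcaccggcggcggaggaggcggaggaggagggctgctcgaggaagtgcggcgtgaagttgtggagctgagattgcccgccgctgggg
The searched motifs were TGANTCA for AP-1, CTTTGAT or CTTTGAA for TCF/LEF, CCGGAAG for ETS and GGAATG for TEAD, on both strands, and no match overlapped another. Of 32817 windows of the same length, 7.81 percent held the AP-1 letters, 8.65 percent the TCF/LEF letters, 8.86 percent the ETS letters and 14.7 percent the TEAD letters. None of the 7 windows held the AP-1 or TCF/LEF letters. The Erbb2 window held the TEAD letters once, at base -88 from the start, and the Btc window held none of the motifs. The other Errfi1 window, not shown, held the TEAD letters at base -65, the Egfr window held the ETS letters at base -120, and the Tgfa window held none. The Errfi1 window shown held, at base -51, the cyclic AMP response element TGACGTCA, which was added to the search after the windows were read and occurs in 1.79 percent of all windows. The same letters stood at base -61 of the Areg window. These are matches of letters and not binding sites.

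Ereg, Areg and Btc are neighbours on mouse chromosome 5, together with Epgn, which encodes epigen, a further EGFR ligand. Epgn was tested in the group of other family genes, with Egf, Nrg2, Nrg3, Nrg4 and Erbb4, of which 4 were tested. Epgn fell 1.27-fold in beta-catenin cells (mean 5.34, against 5.68 in control cells, adjusted p = 0.00549) and averaged 5.73 in ICAT cells (adjusted p = 0.731). Egf, Nrg2 and Nrg4 passed in neither line, and Nrg3 and Erbb4 stayed under the filter with means from 3.23 to 3.75. With Erbb4 at that level, the measured receptors of this family were Egfr, Erbb2 and Erbb3. Among the genes around the cluster, Mthfd2l, which lies beside Epgn and encodes a mitochondrial folate enzyme, was lower in both lines (log2 difference -1.01 in beta-catenin and -0.69 in ICAT cells), although 1 of its other probe sets passed in neither. Parm1, on the far side of Btc, did not pass in beta-catenin cells (-0.02, adjusted p = 0.877) and rose in ICAT cells (0.62, adjusted p = 6.96e-05). The chemokine gene Cxcl2, farther out beyond Mthfd2l, rose in ICAT cells (1.73, adjusted p = 0.00162) and did not pass with beta-catenin (0.64, adjusted p = 0.168). Its control mean, 4.99, lay just under the limit of log2 5, where RMA compresses differences. Next to Parm1, Rchy1 was lower in beta-catenin cells (-0.32, adjusted p = 0.00534), and Cxcl1, beyond Cxcl2, passed in neither line on its brightest probe set, whereas another was lower with beta-catenin (-0.39, adjusted p = 0.0207). The neighbours were taken by position, after their values were seen.

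**Figure D3:**
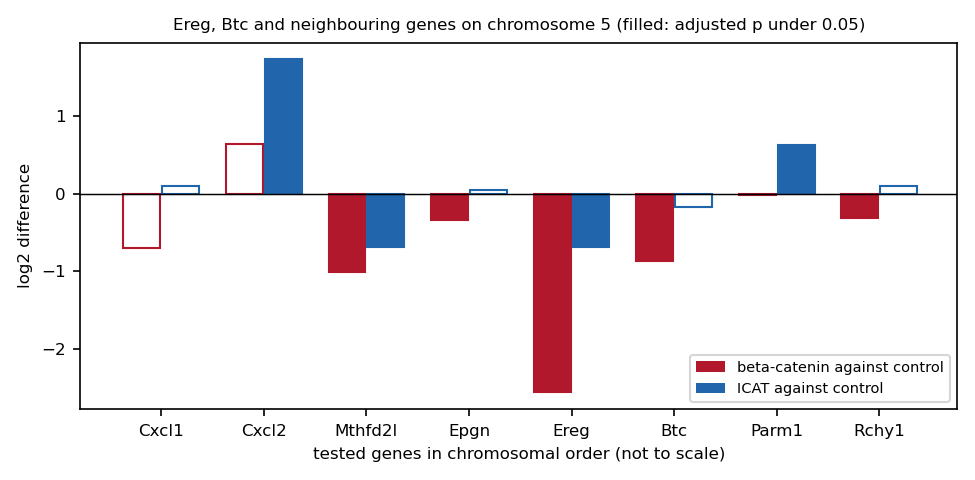
Log2 differences (y axis) of Ereg, Btc and the tested protein-coding genes around them, in their order on chromosome 5 (x axis, not to scale), for beta-catenin and ICAT cells against control cells. Filled bars passed an adjusted p of 0.05. Mthfd2l, Epgn, Ereg, Btc and Rchy1 have filled bars below 0 for beta-catenin, with Ereg at -2.56.

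Most of the listed genes that ERK signalling induces, several of which feed back on it, fell in beta-catenin cells. Of 21 tested genes on this list, 17 were lower and 3 higher there, and the median difference was -1.05 beside -0.03 over all genes (14.4 percent of all genes were called lower). The Sprouty gene Spry4, whose product restrains RAS and ERK signalling, fell 8.46-fold on its brightest probe set (log2 difference -3.08, adjusted p = 8.84e-07). Its 3 other probe sets fell by less (-0.72, -1.24 and -1.12). The ETS factor gene Etv5 fell 7.20-fold (-2.85), with -1.27 and -2.05 on its other probe sets, and the ERK phosphatase gene Dusp4 fell 5.11-fold. In ICAT cells the brightest Spry4 probe set did not pass (-0.22, adjusted p = 0.523), whereas 2 others were called lower (-0.55 and -0.76). In beta-catenin cells Junb, Myc and Spry1 rose, by 1.03, 0.44 and 0.41 on the log2 scale. With ICAT the list split, with 5 of the 21 higher and 5 lower (median -0.14). The early response gene Egr1 rose 3.03-fold and Spry1 1.89-fold in ICAT cells, and Dusp4 fell 2.22-fold. The other genes called there were Dusp6, Etv5 and Junb, which were higher, and Spred1, Dusp5, Dusp7 and Fosl1, which were lower. In beta-catenin against ICAT cells 17 of 21 were lower and 2 higher (median -0.93, with 16.8 percent of all genes lower). The fall of this list in beta-catenin cells was already known from these data when the genes were listed and is no independent evidence.

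The list of negative regulators of ERBB receptors, without Errfi1, was mixed. It was drawn broadly, and not every gene on it is an inhibitor, Usp8 and Rab7 among them. With beta-catenin, 3 of 16 were lower and 1, Usp8, was higher, where 14.4 percent of all genes were called lower and 18.7 percent higher. Lrig1, a transmembrane protein gene whose product drives ERBB degradation, fell 3.03-fold (adjusted p = 3.97e-08). Socs5, which encodes a suppressor of EGFR signalling, fell 1.60-fold, and the ubiquitin ligase gene Cblb 1.24-fold. With ICAT, 5 of 16 were higher (Lrig1, Socs5, Cblb, Usp8 and Rab7) and 3 lower (Cbl, Ptpn1 and Ptpn2), where 17.9 percent of all genes were called higher and 17.5 percent lower. The counts lower in both lines and higher with beta-catenin lie near or below the share of all genes. Lrig1, Socs5 and Cblb thus passed in the opposite direction from beta-catenin cells (1.24-fold, 1.38-fold and 1.54-fold higher with ICAT, adjusted p = 0.0094, 0.000173 and 0.000247). Other probe sets of Lrig1 and Cblb did not pass in ICAT cells, and 1 Lrig1 probe set did not pass in beta-catenin cells either. Only 3 of the 16 rose in ICAT cells when control replicate 1, 2 or 3 or ICAT replicate 1 or 3 was left out. In beta-catenin against ICAT cells Lrig1 was 3.75-fold, Socs5 2.21-fold and Cblb 1.91-fold lower. Genes named here beyond the 3 of each list with the greatest called change in a comparison were chosen after their values were seen.

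**Figure D4:**
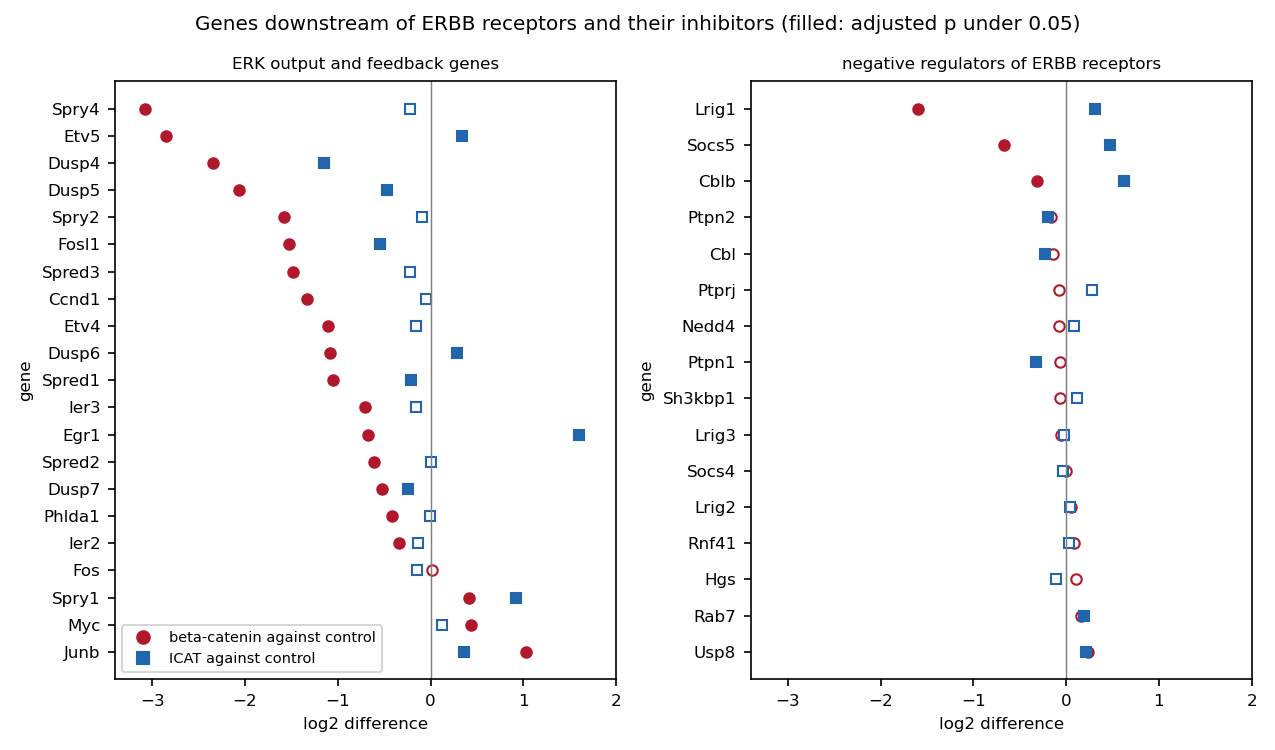
Log2 differences (x axis) of the ERK output and feedback genes and of the genes listed as negative regulators of ERBB receptors (y axis). Circles are beta-catenin cells and squares ICAT cells, each against control cells. Filled symbols passed an adjusted p of 0.05. Spry4, Etv5, Dusp4 and Dusp5 lie left of -2 for beta-catenin, and Lrig1, Socs5 and Cblb lie on opposite sides of 0 in the 2 lines.

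Genes of ligand shedding and of the receptor signal, with the inhibitor gene Timp3 on the shedding list, moved in both directions. Of 12 shedding genes, 4 were higher with beta-catenin (Timp3, Adam12, Frmd8 and Adam10) and 2 lower (Adam17 and Adam8). With ICAT 3 were higher (Timp3, Adam9 and Adam8). Among all genes 18.7 percent were called higher and 14.4 percent lower with beta-catenin, and 17.9 percent higher with ICAT. Adam17, the main protease for several EGFR ligands, was 1.21-fold lower with beta-catenin (adjusted p = 0.0116), and its ICAT difference was 0.12 (adjusted p = 0.249). Timp3, which encodes an inhibitor of that protease, rose 2.13-fold with beta-catenin (adjusted p = 0.000125). It was 2.82-fold above control with ICAT (adjusted p = 1.86e-05).

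Among 15 genes of adaptors and RAS regulators, 2 were higher with beta-catenin (Gab1 and Plcg1). Lower were 6 (Rasa1, Gab2, Sos2, Rasa2, Rasal2 and Shc1). The list was drawn broadly, and the products of Rasa1, Rasa2 and Rasal2 inactivate RAS. Rasa1, a RAS GTPase-activating protein gene, fell 2.30-fold there (adjusted p = 4.08e-06), the docking protein gene Gab2 1.66-fold and the exchange factor gene Sos2 1.52-fold. The 2 other Gab2 probe sets did not pass (0.03 and -0.12). With ICAT 2 of the 15 were higher (Shc1 and Gab1) and 3 lower (Grb2, Gab2 and Rasa2). The adaptor gene Shc1 rose 1.47-fold in ICAT cells and was lower with beta-catenin (log2 difference -0.33, adjusted p = 0.00535), where its other probe set did not pass (-0.18, adjusted p = 0.127). Of 9 ERK cascade genes, 3 were higher with beta-catenin (Araf, Ksr1 and Lamtor3) and 4 lower (Shoc2, Map2k1, Iqgap1 and Braf). With ICAT 2 were higher (Ksr1 and Araf) and 3 lower (Shoc2, Map2k2 and Ppp1ca). The other probe sets of Ksr1 and Shoc2 passed in neither line. With beta-catenin, some other Araf probe sets were called higher and some did not pass. Among 12 trafficking genes and EGFR partners, 1 was higher with beta-catenin (Stam2) and 5 lower, with Eps8, an EGFR substrate gene, 2.21-fold lower (adjusted p = 2.51e-07). With ICAT 3 of them were higher (Rab5a, Stam2 and Rab11a) and 1 lower (Tnk2). The 4 other probe sets of Stam2 passed in neither line. The shares of these lists that were called lie beside 33.1 percent of all genes with beta-catenin and 35.3 percent with ICAT. By direction, 18.7 percent of all genes were higher and 14.4 percent lower with beta-catenin. With ICAT these shares were 17.9 and 17.5 percent.

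Markers of other cell types were read beside these results. In ICAT cells 7 of 8 tested fibroblast markers were higher than in control cells (17.9 percent of all genes were). The summed level of all 10 measured ones, as log2, lay between 14.60 and 14.71 in ICAT, against 13.64 and 13.66 in control cells. In beta-catenin cells 2 were higher and 2 lower (18.7 and 14.4 percent of all genes were), with sums from 13.14 to 13.26. Lum and Fap, of the same list, stayed under log2 5 on all arrays. Of 7 tested epithelial markers 3 were higher in ICAT than in control cells (Krt8, Krt18 and Krt19), beside 17.9 percent of all genes. In beta-catenin cells limma called none of the 7, and none had an unadjusted p under 0.05. The summed level of the 10 measured ones lay between 9.31 and 9.34 in beta-catenin, 9.70 and 10.2 in ICAT, and 9.40 and 9.46 in control cells.

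Of 4 tested ductal markers, Sox9 (log2 difference 0.53) and Krt19 (0.28) were higher in ICAT cells. In beta-catenin cells limma called none of them, and 1 had an unadjusted p under 0.05. Of 4 tested acinar markers, Cela1, a pancreatic elastase gene, was higher in both lines, by 1.21 with beta-catenin (adjusted p = 2.22e-07) and by 0.40 with ICAT on the log2 scale. The acinar sums lay between 9.82 and 9.92 in beta-catenin, 9.34 and 9.43 in ICAT, and 9.10 and 9.23 in control cells. Their order follows Cela1, with means of 9.35, 8.54 and 8.14, and Cpa1, Prss2 and Rbpjl passed in neither line. Of 4 tested immune markers 1, Cd68, was lower with beta-catenin (-0.55). Csf1r averaged 7.11, 7.25 and 7.25 and Cd3e 6.98, 7.08 and 7.07 in beta-catenin, ICAT and control cells, while Ptprc and Itgam stayed under log2 5 on all arrays. Of 3 tested endothelial markers 1, Emcn, was lower with beta-catenin (-0.27, adjusted p = 0.038), and Kdr averaged 7.5, 7.44 and 7.41, while Cdh5 stayed under log2 5. Emcn lay near that limit, with means of 4.84 in beta-catenin and 5.11 in control cells. In ICAT cells limma called none of the immune or endothelial markers, and 0 had an unadjusted p under 0.05. The counts of ductal, acinar, immune and endothelial markers called lie beside 33.1 percent of all genes with beta-catenin and 35.3 percent with ICAT. By direction, 18.7 percent of all genes were higher and 14.4 percent lower with beta-catenin. With ICAT these shares were 17.9 and 17.5 percent. Each of these marker counts rests on 3 or 4 tested markers. Marker genes are named here after their values were seen. The part of these markers in the differences of the ligand and receptor genes was not tested.

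The genes whose profile over the 9 arrays was most like that of a member were named by Pearson's r for the 3 members with the widest range of group means. For Ereg (range 2.56 log2 units) they were Ier3, Capg, Dock9, Foxc2 and Akap2, with r from 0.9934 to 0.9947. For Errfi1 (range 2.44) they were Ern1, Ank, Sptssa, Dusp6 and Ptpn12, with r from 0.9948 to 0.9978. For Hbegf (range 2.12) they were Sgms2, C77080, Dkk2, Evi2a and Jun, with r from 0.997 to 0.9988. The 9 arrays fall into 3 groups, so r mostly describes group means. Sizes differed, since Dkk2 fell by 5.23 on the log2 scale in beta-catenin cells and Hbegf by 2.12. Like Errfi1, the genes Ern1, Ank, Sptssa and Dusp6 passed in both lines, lower with beta-catenin and higher with ICAT. The differences were -0.86 and 0.31 for Ern1, -1.06 and 0.27 for Ank, and -0.48 and 0.20 for Sptssa. Those of Dusp6 were -1.08 and 0.29 (limma, adjusted p = 4.13e-06 and 0.0314). Ptpn12 did not pass in ICAT cells (limma, adjusted p = 0.236). A second probe set of Ern1 was called lower in ICAT cells, against its brightest, which was called higher.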

How the data were processed

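RNA of 9 cultures, 3 each of beta-catenin, ICAT and control cells, was hybridised to Affymetrix 3′ arrays, per the labels' protocols. The deposited values are log2 expression, which the authors made by RMA (affy package), per the submitters' processing notes, with no version stated there. RMA corrects background, gives arrays 1 distribution and compresses dim values, so a shift of all genes one way would not be seen.

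Of 45037 probe sets, 34945 had 1 gene, 932 several and 9160 none. limma 3.58.1 (R 4.3.3) estimated group means from the 9 arrays together, over 33545 probe sets with log2 of at least 5 on at least 3 arrays (6 residual and 5.32 prior degrees of freedom). Tests were two-sided, with Benjamini-Hochberg adjustment over these probe sets in each comparison. A gene was read by its brightest single-gene probe set, 15235 genes in all. The limit of 5 is chosen, since no detection calls were used. An exact permutation test of 3 against 3 cannot go below 0.1 and was not run. No 2 arrays were identical. The fit was tested on simulated data.

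The members, the lists and the tests were chosen with earlier results of these data known. All members are described, with up to 3 called genes of each list and the 5 most similar profiles, though not every gene so selected. Alternatives were a replicate block, 2 groups only, each array left out, no filter, a filter of log2 7, 1 probe set per gene, array weights, a trended robust variance and median centring.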

Additional observations from a re-analysis of the deposited data

How the results depend on the processing

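Counts of member genes called moved little. They were 7 in beta-catenin and 2 in ICAT against control and 6 between the lines, and leaving out each array in turn gave 6 to 7, 2 to 3 and 5 to 6. Of 867 differences of single member probe sets under the alternatives, 819 kept their direction and side of the threshold, 5 lost and 14 gained a call, 29 uncalled ones changed sign, and no called one reversed. Array weights also brought the ICAT difference of Nrg1 past the threshold (adjusted p = 0.0183), and a filter of log2 7 did so too (0.0373). With array weights, Nrg1 no longer differed between the lines (0.0635). The counts of probe sets called over the whole table, 9947, 10605 and 11669, became 5321, 5670 and 6155 with 1 probe set per gene, where fewer were tested. Array weights gave 15412 for beta-catenin against control, and the cause was not tested. Leaving out 1 array gave 7885 to 11570, 8310 to 11399 and 9564 to 13034. In checks added after the data were seen, ERK output genes lower with beta-catenin numbered 16 or 17 under every setting tried. Genes of the negative regulator list higher in ICAT cells numbered 3 in place of 5 with 2 groups only, array weights or median centring. They numbered from 3 to 5 when 1 array was left out. Deviations of arrays with the same replicate number correlated from -0.115 to 0.37, so not every pair was above 0.1, and the numbers were not taken to pair the samples. In 12 of 18 sets of an array and another group the best correlation was with its own number, a hint from the data, and not from the labels, that numbers may share something. A replicate block gave 7, 2 and 6 member genes and 10405 probe sets for beta-catenin against control.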

Other observations

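Other signalling genes beside the ERBB receptors changed in both lines. Of 8 STAT and SRC family genes, beta-catenin cells had 4 higher (Stat3, Stat5a, Stat5b and Jak2) and 1 lower (Src), and ICAT cells had 6 higher. Among all genes 18.7 percent were higher and 14.4 percent lower with beta-catenin, and 17.9 percent were higher with ICAT. The other Stat5b probe set passed in neither line (0.07 and -0.01 on the log2 scale). The other Stat5a probe set did not pass with ICAT (limma, adjusted p = 0.0962). Stat3, which acts downstream of cytokine receptors and EGFR, rose 2.33-fold with beta-catenin (limma, adjusted p = 1.94e-06). Its ICAT increase was 2.16-fold (adjusted p = 8.8e-06), although 1 of its other probe sets passed in neither line. Src was 1.72-fold lower in beta-catenin cells, and Fyn, a kinase of the same family, rose 1.65-fold in ICAT cells. Inpp4b, which encodes a phosphoinositide phosphatase, was 4.77-fold lower in beta-catenin and 4.72-fold lower in ICAT cells than in control cells. Its other probe set passed in neither (-0.23 and -0.14 on the log2 scale, adjusted p = 0.0765 and 0.272).

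Of 18 other receptor tyrosine kinase genes, beta-catenin cells had 5 higher and 4 lower, and ICAT cells had 8 higher and 3 lower. Among all genes 33.1 and 35.3 percent were called in these comparisons. By direction, 18.7 percent of all genes were higher and 14.4 percent lower with beta-catenin. With ICAT these shares were 17.9 and 17.5 percent. Pdgfra, also on the fibroblast marker list, was 4.11-fold higher in beta-catenin and 4.04-fold higher in ICAT cells on its brightest probe set. Its 2 others differed by less, by 0.82 and 0.88 on the log2 scale with beta-catenin and by 0.42 (adjusted p = 0.0989, not called) and 0.79 with ICAT. The collagen receptor gene Ddr1 rose 2.33-fold in beta-catenin cells, where 3 of its other probe sets did not pass, and Ror1 fell 2.51-fold. In ICAT cells Fgfr1 rose 2.34-fold and Pdgfrb 1.73-fold. Neither passed with beta-catenin (adjusted p = 0.219 and 0.921).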
